A study of Homo sapiens with 12 samples.

Results

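The 10 genes of nerve cells and hormone-secreting cells, TUBB2B, NEFL, INA, GAL, GALR2, VGF, LIN28B, STMN1, ZCCHC12 and CYFIP2, were followed in 2 human cell lines with and without a hairpin that lowers NCSTN, which encodes nicastrin, a subunit of gamma-secretase. They were given by name and mapped to probes through the platform annotation, which gave 13 probes, and every probe detected in the non-normalised scanner table was used. That left 12 probes of 10 genes among 18152 detected probes and 11075 named genes, since the remaining STMN1 probe was detected on 1 of the 12 arrays and was not kept. The genes were chosen from earlier results of these arrays, for their level in HEK293 against HEK001 and, for VGF and GALR2, for their change with the hairpin in HEK293. Values from those contrasts are therefore given as a description without a test. The label under which the genes were gathered calls them genes of HEK293. In control cells this held for TUBB2B, LIN28B, ZCCHC12, CYFIP2 and NEFL, whereas VGF, INA and GAL had higher levels in HEK001, and GALR2 was not detected in full in either line. The kept STMN1 probes differed in opposite directions, by -0.29 and 0.27 on the log2 scale (HEK293 minus HEK001).

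HEK001 is an immortalised human epidermal keratinocyte line, and HEK293 is a human line made by transforming embryonic kidney cultures with adenovirus DNA. Each line carried either a lentiviral short hairpin against NCSTN, labelled A08, or a pLKO hairpin against luciferase as the control, with 3 arrays for each of the 4 groups. All groups had thus been infected for 24 h with polybrene at 10 µg/mL and selected with puromycin for about 2 weeks, at 2 µg/mL in HEK293 and at a labelled 0.5 with an incomplete unit in HEK001. HEK293 grew in DMEM with fetal bovine serum and HEK001 in a serum-free keratinocyte medium with EGF and bovine pituitary extract, so line and medium cannot be told apart. A single NCSTN hairpin was used, so effects of the knockdown and of that hairpin sequence cannot be told apart. The groups follow the sample titles and the cell line entries, while the source name gives HEK001 for every sample. Whether replicates were separate cultures is not stated in the labels, and the p-values then reflect no more than the scatter of these arrays, which may be technical.

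The members cover several parts of the neuronal programme. TUBB2B is a beta-tubulin of developing neurons and STMN1 encodes stathmin, which binds tubulin dimers and favours disassembly of microtubules. NEFL and INA encode neurofilament light chain and alpha-internexin, intermediate filament proteins that assemble together in axons. VGF is the precursor of several secreted peptides and is a classical target of nerve growth factor and cyclic AMP signalling, GAL encodes the neuropeptide galanin, and GALR2 is a galanin receptor. LIN28B binds precursors of the let-7 microRNAs and blocks their processing. CYFIP2 is a subunit of the WAVE complex that controls branched actin and a partner of the RNA-binding protein FMRP, and ZCCHC12 is a zinc finger co-activator of BMP signalling that acts with CREB-binding protein in neuronal cells. HEK293 is known to express many neuronal transcripts.

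Between 14818 and 16333 of 47318 probes were detected on an array, at a detection p under 0.01. Levels correlated across detected probes at Pearson's r of 0.9885 to 0.9936 between arrays of a group, 0.9769 to 0.9874 between hairpins of a line and 0.8062 to 0.8276 between lines. Of 8 keratinocyte markers, all 8 had a measured level in HEK001 and 0 of 8 in HEK293. NCSTN itself was lower with its hairpin, by 1.98 on the log2 scale in HEK293 (SE 0.119) and by 3.1 in HEK001 (SE 0.119), with limma adjusted p of 4.34e-07 and 4.79e-08. Its 3 levels with the hairpin lay below its 3 control levels in both lines. All levels below are log2 of the background-corrected, quantile-normalised intensity, and they are compared only within a probe. A level counts as measured in a group where the probe was detected on all 3 arrays. Where it was not, the fold is a lower bound against the higher of the probe's own value and the lowest value of any detected probe, which was between 5.27 and 5.5 per array. Folds and bounds hold for the offset of 16 added in the background correction. In whole cultures, fewer cells of a kind and less RNA per cell cannot be told apart.

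TUBB2B, ZCCHC12, CYFIP2 and LIN28B were measured in HEK293 and undetected on all 6 HEK001 arrays. TUBB2B, the beta-tubulin, had levels of 12.22, 12.06 and 11.96 on the 3 control arrays of HEK293 and 11.89, 11.85 and 11.82 with the NCSTN hairpin, against 4.63, 4.75 and 4.55 and 4.49, 4.46 and 4.49 in the corresponding HEK001 groups. The lines were thus separated by a wide gap, at least 103-fold in control cells and at least 86.8-fold with the NCSTN hairpin. The former bound is 6.68 on the log2 scale and depends on the offset. With an offset of 50, the fitted TUBB2B difference in control cells was 6.21, below that bound. TUBB2A, the closest relative of TUBB2B, was measured in both lines, at mean control levels of 8.24 in HEK293 and 8.54 in HEK001. The TUBB2B probe was therefore at background in cells in which the TUBB2A probe was not, and whether either probe reads the other transcript was not analysed here.

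ZCCHC12, the zinc finger co-activator, had levels of 11.24, 11.40 and 11.31 in HEK293 controls and 11.29, 11.19 and 11.23 with the NCSTN hairpin. In HEK001 its levels lay between 4.26 and 4.36 on all 6 arrays, and every deposited signal there was below 0 after background subtraction. The difference between lines was at least 60.6-fold in control cells and at least 56.6-fold with the NCSTN hairpin. With an offset of 50, its fitted control difference was 5.57 on the log2 scale, below the 5.92 of the former bound. LIN28B, the let-7 antagonist, had levels of 10.70, 10.55 and 10.45 in HEK293 controls and 10.48, 10.21 and 10.11 with the hairpin. Its 6 HEK001 levels were between 4.36 and 4.53, and the gap was at least 36-fold in control cells and at least 28.8-fold with the NCSTN hairpin. The LIN28B bound for control cells, 5.17 on the log2 scale, also depends on the offset, as the fitted difference was 4.79 with an offset of 50.

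CYFIP2, the WAVE subunit, was read by a pair of detected probes that belong to different annotated transcripts. The brighter probe gave 10.61, 10.85 and 10.55 in HEK293 controls and 10.45, 10.37 and 10.38 with the NCSTN hairpin, and 4.35 to 4.47 over the HEK001 arrays. The dimmer probe gave 7.05, 6.94 and 7.13 in HEK293 controls, 6.99, 7.18 and 6.89 with the hairpin, and 4.34 to 4.54 in HEK001. Both probes were undetected on every HEK001 array, and the bounds for control cells were at least 38.6-fold by the brighter probe and at least 3.13-fold by the dimmer. With the NCSTN hairpin the bounds were at least 31.7-fold and at least 3.04-fold. The bounds for control cells, 5.27 and 1.64 on the log2 scale, depend on the offset. With an offset of 50, the fitted control differences were 4.91 by the brighter probe and 1.58 by the dimmer.

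**Figure D1:**
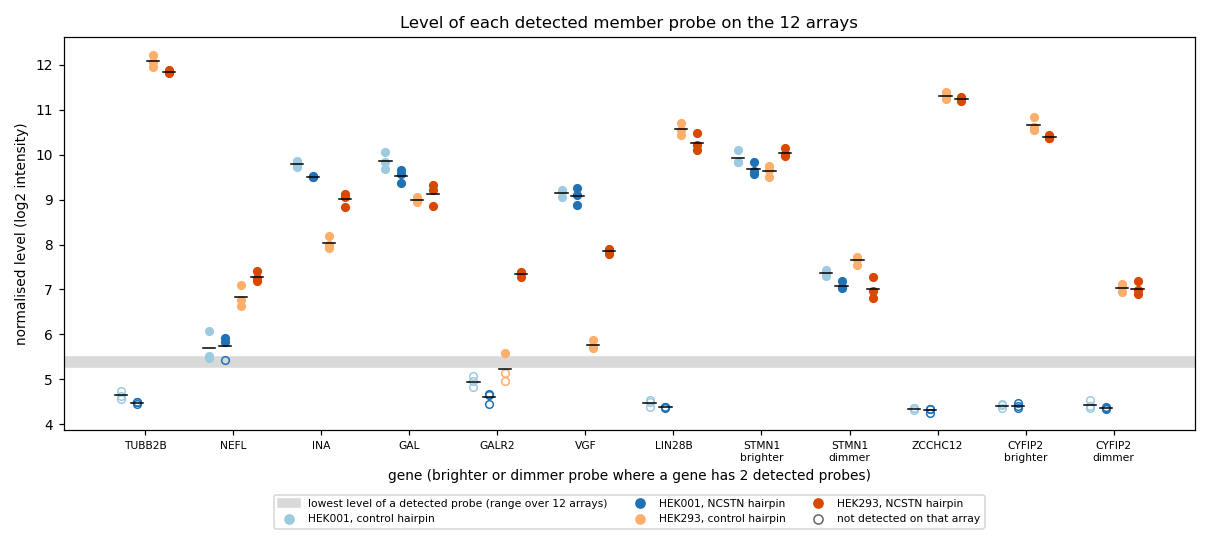
Normalised level (log2 intensity, vertical axis) of each of the 12 detected probes on the 12 arrays, by line and hairpin. Points are single arrays, open where the probe was not detected on that array, short lines are means of 3 arrays, and the grey band spans 5.27 to 5.5, the lowest level of a detected probe per array. TUBB2B, LIN28B, ZCCHC12 and CYFIP2 sit at background in HEK001, while INA, GAL and VGF are higher in HEK001 than in HEK293.

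Measured in HEK293 but not in full in HEK001 was a pattern of 1230 of 11075 genes (11.1%), the reverse held for 1039 (9.38%), and 8261 (74.6%) were measured in both lines. A gene counts as measured in a line where at least 1 of its groups was. Of the 10 members, 5 were measured in HEK293 only and 5 in both lines. TUBB2B, ZCCHC12, CYFIP2, LIN28B and GALR2 passed the detection filter through HEK293 arrays alone, so their difference between lines follows from how they were kept. Over the 12 member probes, the levels of the lines did not overlap for 11 in control cells, 7 higher and 4 lower in HEK293, against 70.7% of all detected probes. With the NCSTN hairpin the lines did not overlap for 11 as well, 8 higher and 3 lower, against 71.5%.

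The 2 neurofilament subunits differed in opposite directions between the lines. NEFL, the light chain, had levels of 6.76, 7.10 and 6.64 in HEK293 controls and 7.19, 7.26 and 7.41 with the NCSTN hairpin. In HEK001 it lay just above the detection limit, at 5.52, 6.07 and 5.48 in controls and 5.42, 5.93 and 5.84 with the hairpin, where 1 array of the latter group did not detect it. All 6 HEK293 levels were above all 6 HEK001 levels, with a control difference of 1.14 on the log2 scale. INA, the alpha-internexin gene, ran the other way, at 9.86, 9.77 and 9.73 in HEK001 controls, 9.53, 9.50 and 9.51 in HEK001 with the hairpin, 8.19, 7.99 and 7.92 in HEK293 controls and 9.12, 8.84 and 9.07 in HEK293 with the hairpin. The order of its 4 groups had no overlap between neighbours, and in control cells it was 3.38-fold lower in HEK293 than in HEK001. With the NCSTN hairpin in both lines the difference was -0.50 on the log2 scale.

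The secreted peptides VGF and GAL were measured in all 4 groups. VGF had levels of 5.87, 5.72 and 5.69 in HEK293 controls and 7.90, 7.86 and 7.78 in HEK293 with the NCSTN hairpin. Its HEK001 levels were 9.05, 9.22 and 9.20 in controls and 9.11, 9.25 and 8.88 with the hairpin. HEK293 controls were lowest, HEK293 cells with the hairpin came next without overlap, and the HEK001 groups were highest and overlapped each other. In control cells VGF was 10.52-fold lower in HEK293 than in HEK001, and with the NCSTN hairpin it was lower by 1.23 on the log2 scale (log2 difference -1.23). Before normalisation the deposited signals of VGF were 48.6, 28.0 and 41.5 in HEK293 controls, with bead standard errors of 2.31 to 6.18, and 192, 210 and 173 with the hairpin, with bead standard errors of 11.5 to 20.6. The separation was thus present in the scanner values as well.

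GAL, the galanin precursor, had levels of 9.69, 10.07 and 9.85 in HEK001 controls and 9.58, 9.38 and 9.65 in HEK001 with the hairpin. In HEK293 it had 9.07, 8.99 and 8.94 in controls and 8.85, 9.33 and 9.21 with the hairpin. The HEK001 levels were above the HEK293 levels on every array, by 0.87 on the log2 scale between the control groups (HEK293 minus HEK001, -0.87) and by 0.41 between the NCSTN hairpin groups (-0.41). The groups of HEK001 did not overlap, with lower levels under the hairpin, and those of HEK293 did.

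GALR2, a receptor for galanin, was measured in a single group. Its levels were 7.28, 7.36 and 7.40 in HEK293 with the NCSTN hairpin, and 5.15, 5.58 and 4.97 in HEK293 controls, where 1 of 3 arrays detected it. On the HEK001 arrays it lay between 4.46 and 5.07 and was never detected. The deposited signals were 122, 145 and 131 in HEK293 with the hairpin and 21.9, 24.6 and 16.03 in HEK293 controls. In HEK293 the NCSTN hairpin group was at least 3.77-fold above the control group, and it was at least 3.81-fold above HEK001 with the same hairpin. The former bound is 1.91 on the log2 scale and depends on the offset. With an offset of 50 in place of 16, the fitted difference in HEK293 was 1.45. Of the ligand and receptor, therefore, the ligand GAL was measured in every group and the receptor in 1.

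**Figure D2:**
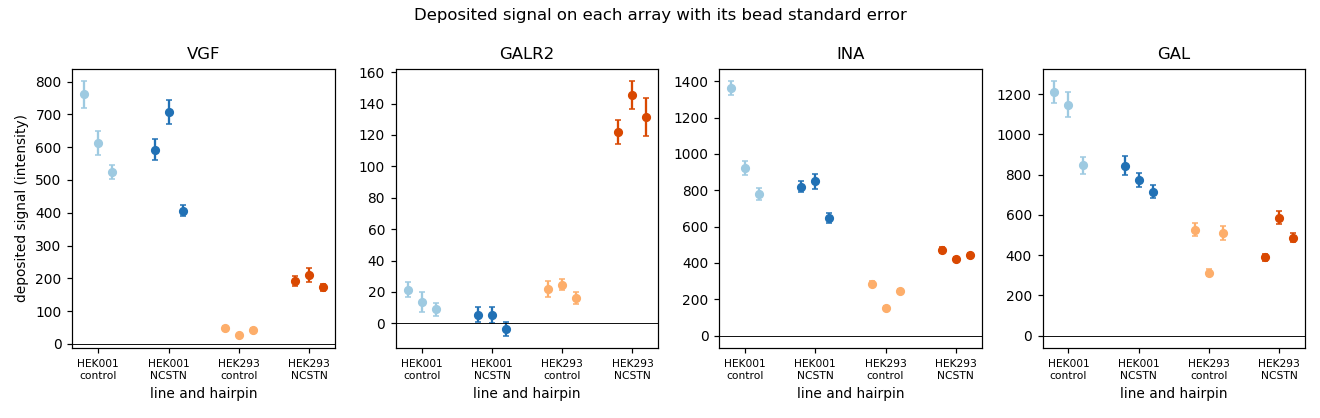
Deposited scanner signal (linear intensity before normalisation, vertical axis) of VGF, GALR2, INA and GAL on each of the 12 arrays, with bars of 1 bead standard error. VGF and GALR2 are higher on the 3 HEK293 arrays with the NCSTN hairpin (173 to 210 and 122 to 145) than on the 3 HEK293 control arrays (28.0 to 48.6 and 16.03 to 24.6), and VGF, INA and GAL are brightest in HEK001.

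VGF, GALR2 and INA were the members with the largest hairpin differences in HEK293. The 250 bases before an annotated RefSeq start of each (GRCh38.p14) are therefore shown, 5′ to 3′ on the gene's strand. For INA this start is that of the annotated gene. The VGF and GALR2 stretches lie within their annotated gene spans, 101162509 to 101169952 and 76071962 to 76077537. Capitals mark the palindrome TGACGTCA, the full cyclic AMP response element, and the GC box GGGCGG on either strand. The VGF stretch is chr7:101165570-101165819 on the minus strand, that of GALR2 is chr17:76074531-76074780 on the plus strand, and that of INA is chr10:103276888-103277137 on the plus strand.
VGF: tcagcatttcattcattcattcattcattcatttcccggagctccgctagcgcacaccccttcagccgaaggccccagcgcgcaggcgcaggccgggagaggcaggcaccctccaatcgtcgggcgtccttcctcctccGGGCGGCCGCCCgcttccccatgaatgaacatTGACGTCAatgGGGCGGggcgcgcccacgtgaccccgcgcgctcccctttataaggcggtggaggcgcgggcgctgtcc
GALR2: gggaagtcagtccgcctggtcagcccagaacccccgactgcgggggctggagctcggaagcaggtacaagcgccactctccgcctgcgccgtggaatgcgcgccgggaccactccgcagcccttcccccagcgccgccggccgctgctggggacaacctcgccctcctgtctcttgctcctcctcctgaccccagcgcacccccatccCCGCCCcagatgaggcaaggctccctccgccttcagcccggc
INA: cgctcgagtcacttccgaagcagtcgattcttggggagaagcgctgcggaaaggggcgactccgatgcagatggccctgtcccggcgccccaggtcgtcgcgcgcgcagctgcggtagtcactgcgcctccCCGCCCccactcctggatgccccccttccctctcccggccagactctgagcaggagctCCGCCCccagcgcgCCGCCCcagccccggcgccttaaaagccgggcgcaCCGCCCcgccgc
The table of promoters held 12 starts of 8 members, and GAL and NEFL were not among them. On either strand, TGACGTCA was found in the VGF stretch, 79 bases before the start, and in none of the other 11, against 1.65% of all 35116 promoters. Its 5-letter core TGACG, which every full element contains, was found in 3 of the 12 member promoters, those of VGF, TUBB2B and ZCCHC12, against 21.2% of all. TATAAA on either strand was found in the VGF stretch alone, 32 bases before the start (10.7% of all). There it is the reverse complement, TTTATA, that stands on the strand shown. The letters GCGNGGGCG, a core that EGR proteins recognise, were found in 3 member promoters, among them VGF at 15 bases before the start (8.41% of all). GGGCGG was found in 9 of 12 (42.6% of all) and CCAAT in 5 of 12 (32.0% of all). These are matches of letters in a window of fixed length, and a match is neither a site nor a cause. The stretches are rich in GC, at 66.0% for VGF, 72.0% for GALR2 and 72.8% for INA.

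STMN1, the stathmin gene, was the member on which probes disagreed. Its brighter probe gave 9.65, 9.50 and 9.76 in HEK293 controls and 9.97, 10.15 and 10.02 with the NCSTN hairpin. Its dimmer probe, annotated to another transcript, gave 7.54, 7.73 and 7.68 in HEK293 controls and 6.80, 6.96 and 7.27 with the hairpin. Each probe separated the groups without overlap, in opposite directions. In HEK001 the brighter probe gave 10.10, 9.85 and 9.85 in controls and 9.57, 9.83 and 9.64 with the hairpin, and the dimmer 7.31, 7.44 and 7.37 and 7.05, 7.18 and 7.03, both lower with the hairpin on every array. Between the lines in control cells the probes differed by -0.29 and 0.27 on the log2 scale (HEK293 minus HEK001), again with opposite signs.

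The hairpin effect was defined as the log2 level with the NCSTN hairpin minus that with the control hairpin in the same line. Over all 18152 detected probes, 20.5% passed an adjusted p of 0.05 in HEK293 in the limma fit (9.89% higher and 10.6% lower), and the median effect over all genes was 0.01. Leaving out VGF and GALR2, 3 of 10 member probes passed in HEK293, INA and the brighter STMN1 probe higher and the dimmer STMN1 probe lower. Groups did not overlap for 6 of these 10 probes, 3 in each direction, against 36.4% of all probes. The members were chosen with results of these arrays known, so their p-values are no independent support.

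INA rose by 0.98 on the log2 scale in HEK293 with the NCSTN hairpin (SE 0.105, 95% interval 0.75 to 1.21, limma adjusted p = 4.69e-05). The brighter STMN1 probe rose by 0.41 (SE 0.113, limma adjusted p = 0.0236) and the dimmer fell by 0.64 (SE 0.12, limma adjusted p = 0.00262). The call of the brighter probe was lost without HEK293 NCSTN hairpin replicate 2 or 3 or HEK293 control replicate 1 or 2, at adjusted p between 0.0527 and 0.0849 and effects between 0.34 and 0.47 over all single omissions. Scaling arrays to a common median over all probes ended the calls of both STMN1 probes in HEK293 (limma adjusted p of 0.33 and 0.0632) with the same signs. NEFL had an effect of 0.45 (SE 0.181) and did not pass (adjusted p = 0.0998 in the limma fit), although its groups did not overlap. The 2 neurofilament subunits thus had estimates of the same sign, of which INA's passed.

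Of the members measured in HEK293 alone, TUBB2B, LIN28B, CYFIP2 and ZCCHC12 had negative estimates there, and none passed. TUBB2B had -0.23 (SE 0.0958, limma adjusted p = 0.121), and its NCSTN hairpin levels were all below its control levels. LIN28B had -0.30 (SE 0.111, limma adjusted p = 0.0757), and without HEK293 NCSTN hairpin replicate 1 it was -0.41 and passed (adjusted p = 0.0253 in the same kind of fit). The CYFIP2 probes had -0.27 (limma adjusted p = 0.0724) and -0.02 (limma adjusted p = 0.926), the latter turning to 0.05 without HEK293 NCSTN hairpin replicate 3 and to 0.02 without HEK293 control replicate 3. ZCCHC12 had -0.08 with a 95% interval of -0.27 to 0.10 (limma adjusted p = 0.57). GAL had 0.13 with an interval of -0.17 to 0.43 (limma adjusted p = 0.563). With an offset of 50 in place of 16 in the background correction, NEFL, LIN28B and the brighter CYFIP2 probe passed, at 0.36, -0.29 and -0.26 (limma adjusted p of 0.0354, 0.0378 and 0.0406). As a description, VGF had 2.08 (SE 0.11), a 4.24-fold higher level, with an interval of 1.85 to 2.32. Its size depended on the processing, at 1.58 (SE 0.0965) with the offset of 50 and 1.93 (SE 0.108) in the authors' deposited values.

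In HEK001, 12.3% of all detected probes passed, and 0 of 6 member probes with a measured level did so. Of these 6, 4 had non-overlapping groups, all 4 lower with the NCSTN hairpin, against 32% of all probes in either direction. They were INA at -0.27 (SE 0.105, limma adjusted p = 0.114), GAL at -0.34 (SE 0.138, limma adjusted p = 0.138) and the STMN1 probes at -0.25 and -0.29 (limma adjusted p of 0.172 and 0.141). The 95% intervals of all 4 lay below 0. VGF had -0.08 (SE 0.11, limma adjusted p = 0.722), with an interval of -0.32 to 0.16, and became 0.02 without HEK001 NCSTN hairpin replicate 3. NEFL had 0.04 (limma adjusted p = 0.929), with a range of -0.07 to 0.23 over single omissions, and turned negative without HEK001 NCSTN hairpin replicate 2 or 3 or HEK001 control replicate 1 or 3.

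**Figure D3:**
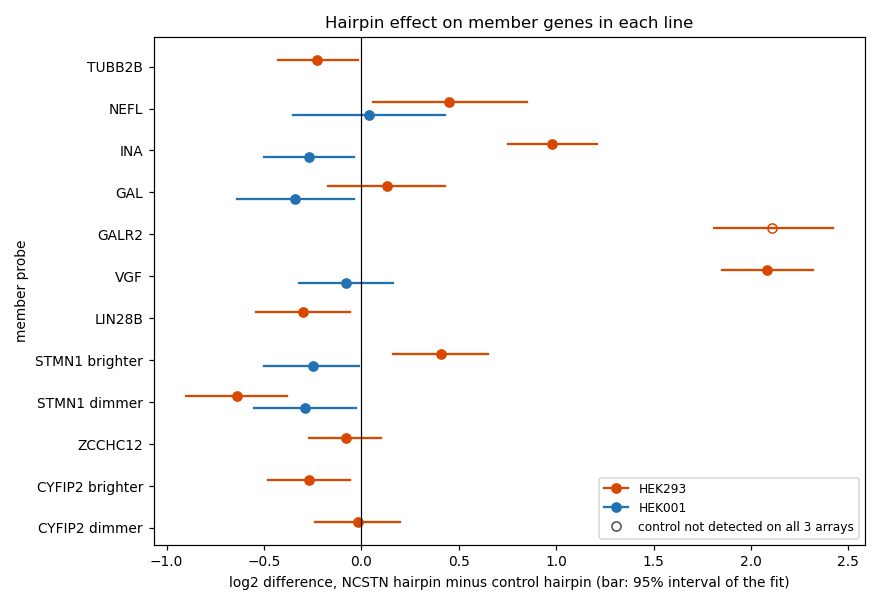
Hairpin effect (log2 level with the NCSTN hairpin minus the control hairpin, horizontal axis) of each member probe in HEK293 and HEK001, with bars of the 95% interval of the fit. An open point has a control group not detected on all 3 arrays, and probes not measured in HEK001 have no HEK001 point. VGF (2.08), GALR2 and INA (0.98) lie to the right in HEK293, the STMN1 probes lie on opposite sides, and no HEK001 effect passed.

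The difference between the hairpin effects, HEK293 minus HEK001, was tested for the 5 probes of NEFL, INA, GAL and STMN1, which were measured in both lines. It passed for INA, at 1.25 (SE 0.149, 95% interval 0.93 to 1.58, limma adjusted p = 0.000178), and for the brighter STMN1 probe, at 0.66 (SE 0.16, limma adjusted p = 0.0133). Of all probes, 19.4% passed in this contrast. The STMN1 call was lost under median scaling over all probes (limma adjusted p = 0.169). The difference did not pass for GAL (0.47, SE 0.195, limma adjusted p = 0.116), NEFL (0.41, limma adjusted p = 0.29) or the dimmer STMN1 probe (-0.35, limma adjusted p = 0.173). Without HEK293 NCSTN hairpin replicate 1 the GAL difference was 0.61 and passed (adjusted p = 0.0377 in the same kind of fit). As a description, the difference for VGF was 2.16 on the log2 scale.

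Around the members, lists of related genes were counted by the brightest detected probe of each gene measured in HEK293, where 26.4% of 9491 genes passed (12.4% higher, 14% lower). The lists contain the members, VGF and GALR2 included, and were drawn up with earlier results of these arrays known. Many listed genes have no named probe here, so a gene missing from a count is not thereby unexpressed. For example, 11 of 29 listed peptide genes and 4 of 19 kidney markers had a named probe. Of 6 neurofilament and related intermediate filament genes, 4 rose, 1 fell and 1 did not pass, with a median effect of 0.73. VIM, the vimentin of mesenchymal and many cultured cells, rose by 1.78 (SE 0.0962, limma adjusted p = 1.56e-07) and by 1.9 on its other probe, and PRPH, the peripherin of peripheral neurons, fell by 0.71 (SE 0.0917). In HEK001, 0 of 4 measured genes of the list rose and 1 fell, with a median of -0.12. For the HEK001 counts of this and the other lists, 16.1% of the 9300 genes measured in HEK001 passed (8.37% higher, 7.71% lower).

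Of 15 tubulin genes, 4 rose, 2 fell and 9 did not pass, with a median of 0.10. TUBB3, the beta-tubulin used as a marker of neurons, rose by 1.94 (SE 0.099, limma adjusted p = 1.11e-07) and TUBB4B by 0.66, whereas TUBB4A, a brain beta-tubulin, was at least 2.66-fold lower and the gamma-tubulin gene TUBG2 fell by 0.45. TUBB2B and TUBB3 thus had effects of opposite sign, of which that of TUBB3 passed. Of 10 stathmin and microtubule-associated protein genes, 2 rose, 3 fell and 5 did not pass, with a median of 0.06. STMN3, a neuronal stathmin, fell by 1.30 (SE 0.11) and MAPT, the tau gene, was at least 1.82-fold lower. TBCB, a tubulin folding cofactor, rose by 0.30 but lost the call in 9 of 12 single omissions. The count of this list, 5, became 3 without HEK293 NCSTN hairpin replicate 1 or HEK293 control replicate 1 or 3, and 2 without HEK293 NCSTN hairpin replicate 2, and it was 3 with no filter on dim probes. In HEK001, 1 of 14 tubulin genes rose and 1 fell, and 0 of 7 stathmin and microtubule-associated protein genes rose and 1 fell.

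Among 9 neuropeptide and peptide hormone genes, 2 rose, 1 fell and 6 did not pass, with a median of 0.13. Beside VGF, ADM, the precursor of the vasodilator adrenomedullin, rose by 1.39 (SE 0.105, limma adjusted p = 2.72e-06), and NMU, the neuromedin U gene, fell by 0.90 (SE 0.189). Of 12 granin, prohormone processing and dense-core granule genes, 2 rose, 0 fell and 10 did not pass, with a median of 0.05. CHGA, the chromogranin of secretory granules, was at least 1.76-fold higher, and PCSK6, a proprotein convertase, rose by 0.91 on its brightest probe. The other PCSK6 probes, not detected in full in the control group, showed no such rise. They had 0.06 and 0.11 and did not pass (limma adjusted p of 0.769 and 0.777). Without HEK001 NCSTN hairpin replicate 3 the count of this list was 4. Of 5 galanin and other neuropeptide receptor genes and binding partners, 2 were higher (GALR2 and HSPA8, a chaperone, by 0.49), 0 fell and 3 did not pass, with a median of 0.27. In HEK001, 0 of 5 peptide genes passed, and 3 of 9 granule genes rose and 0 fell. Of the 5 genes of the receptor and binding partner list measured there, 0 rose and 1 fell.

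Of 20 genes of LIN28, let-7 processing and let-7 targets, 2 rose, 3 fell and 15 did not pass, with a median of -0.10. MYC, a growth regulator, fell by 1.26 (SE 0.106, limma adjusted p = 6.42e-06) and by 1.30 on its other probe, and HMGA1, a chromatin protein gene and let-7 target, fell by 0.92 (SE 0.155). DGCR8, a microRNA processing cofactor, and PLAGL2, a zinc finger factor, rose by 0.35 and 0.34, and they lost the call in 9 and 4 of 12 single omissions. The count of this list, 5, became 3 without any of the 3 HEK293 NCSTN hairpin arrays, without HEK293 control replicate 1, or without HEK001 NCSTN hairpin replicate 1 or HEK001 control replicate 1 or 2. It was also 3 with no filter or a looser filter on dim probes, and 2 in a fit of the HEK293 arrays alone. In HEK001, 2 of 20 rose and 1 fell. Mature microRNAs were not analysed here.

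Of 13 WAVE complex and FMRP partner genes, 1 rose, 2 fell and 10 did not pass, with a median of -0.09. RAC3, a small GTPase of developing neurons, fell by 1.22 (SE 0.166, limma adjusted p = 0.000275). The WAVE subunits BRK1 (0.33) and WASF3 (-0.31) passed, but lost the call in 3 and 10 of 12 single omissions, and the count was 1 without HEK293 NCSTN hairpin replicate 2 and in a fit of the HEK293 arrays alone. Of 7 ZCCHC and PNMA genes, 1 rose, 1 fell and 5 did not pass, with a median of -0.08. PNMA1 rose by 0.96 (SE 0.142) and PNMA2 fell by 0.86 (SE 0.125), both named as antigens of paraneoplastic neurological disease. In HEK001, 1 of 12 genes of the former list rose and 0 fell, and 0 of 2 of the latter passed.

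Of 12 BMP and CREB partners and CREB targets, 4 rose, 0 fell and 8 did not pass, with a median of 0.15. EGR1, an immediate early transcription factor, rose by 2.07 (SE 0.104, limma adjusted p = 1.11e-07), and FOS, another immediate early gene, was at least 1.75-fold higher. In HEK001, 2 of 12 rose and 0 fell. Of 12 corepressors and other partners of REST, the repressor of neuronal genes, 1 rose, 3 fell and 8 did not pass, with a median of -0.20. REST itself was not among the 12. RCOR3 rose by 0.53, while RCOR2 fell by 0.70 and SIN3A by 0.65. In HEK001, 1 of 10 rose and 0 fell.

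Of 13 proneural and neuronal transcription factor genes measured in HEK293, 4 rose, 4 fell and 5 did not pass, with a median of -0.28. ID1 and ID3, inhibitors of proneural factors and targets of BMP signalling, rose by 1.16 (SE 0.109) and 0.97 (SE 0.116), whereas INSM1, a zinc finger factor of neuroendocrine differentiation, fell by 1.49 (SE 0.123, limma adjusted p = 5.63e-06) and POU3F2, a neural POU factor, by 0.83 and by 0.72 on its other probe. As a description of the control cells, 13 of the 14 detected genes of this list had higher levels in HEK293 than in HEK001, 1 of them (ID4) without full detection in either line, against 39% of all genes. Of the 14, 8 were measured in HEK293 only and 0 in HEK001 only. The direction of those 8 follows largely from how they were kept. The list was drawn up with earlier results known, so the count is no test. In HEK001, 0 of 5 passed for the hairpin.

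Of 18 pan-neuronal and synaptic genes, 5 rose, 4 fell and 9 did not pass, with a median of 0.04. The adhesion genes PCDH7 and NCAM1 rose by 1.56 (SE 0.132) and 1.05 (SE 0.136), while CNTN1, a contactin, fell by 0.94 (SE 0.104) and SYT1, the synaptic vesicle calcium sensor, by 0.81 (SE 0.162). The other CNTN1 probe was undetected on all 6 HEK293 arrays. In HEK001, 2 of 14 rose and 2 fell. Median scaling over all probes left fewer calls in several lists, 3 for the tubulins, 3 for the stathmins and microtubule-associated proteins, 1 for the receptors, 2 for the let-7 genes, 1 for the WAVE genes, 1 for the REST genes, 4 for the transcription factors and 5 for the pan-neuronal genes. An offset of 50 gave 4 calls among the granule genes, 8 among the let-7 genes and 5 among the WAVE genes. Neuronal genes changed in both directions within HEK293.

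**Figure D4:**
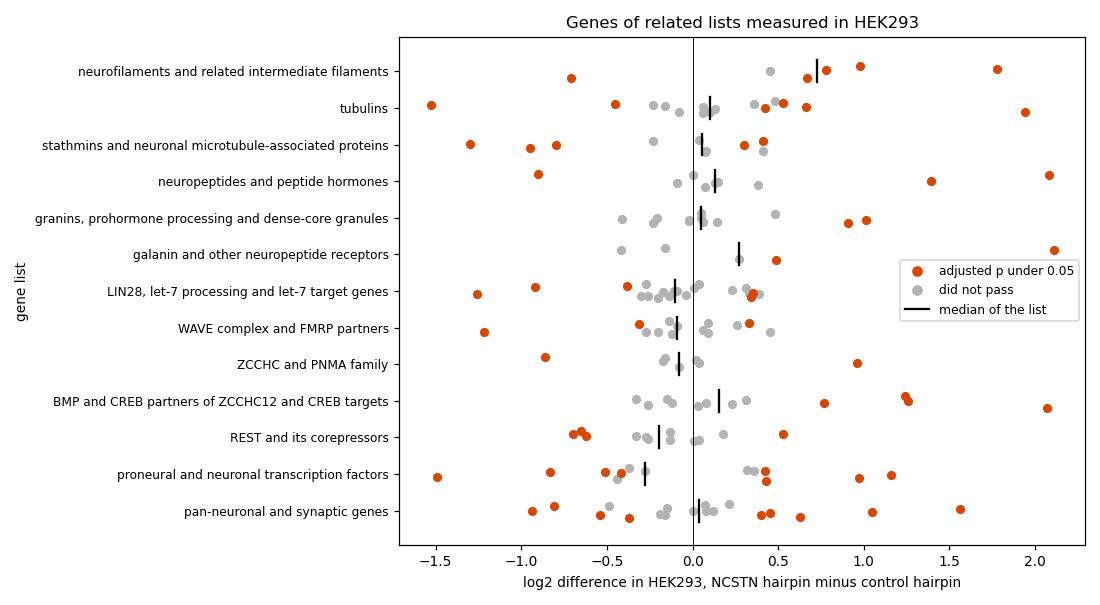
Hairpin effect in HEK293 (log2, horizontal axis) of each gene measured in HEK293 in 13 lists of related genes, by the brightest probe. Points are genes, coloured where the limma adjusted p is under 0.05, and short lines are list medians, from -0.28 for the proneural factors to 0.73 for the intermediate filaments. Most lists have coloured points on both sides of 0.

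Markers of other cell types were set beside these effects, and their part in them was not tested. In HEK293, 0 of 8 keratinocyte markers were measured, with summed linear levels of 183 to 196 with the NCSTN hairpin and 182 to 201 in controls. In HEK001, 5 of 8 rose with the NCSTN hairpin, with sums of 43700 to 46000 against 35800 to 36900 in controls. Of 9 listed glial markers, 2 had a named probe. Both were measured in HEK293 and fell, MBP by 1.11 on its brightest probe, its other probes being undetected on all 6 HEK293 arrays, and OLIG2 by 0.46, with sums of 253 to 285 against 473 to 508. The OLIG2 call was lost in 5 of 12 single omissions, those of all 3 HEK293 NCSTN hairpin arrays and of HEK293 control replicates 1 and 2, and the list had 1 call with no background correction, with no filter on dim probes and in the authors' deposited values. Of 2 kidney epithelial markers, CDH1, the E-cadherin gene, was at least 3.23-fold lower and 1 did not pass, with sums of 231 to 255 against 345 to 380.

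The single fibroblast marker measured in HEK293, COL1A1, was at least 1.56-fold lower, with sums of 27.2 to 39.3 with the NCSTN hairpin against 52.8 to 72.2. The single melanocyte marker measured there, PMEL, was at least 1.39-fold lower, with sums of 68.7 to 102 against 83.2 to 125, and its call was lost without HEK293 NCSTN hairpin replicate 1 or HEK293 control replicate 1 or 3 and in a fit of the HEK293 arrays alone. Of 4 detected adrenal and chromaffin markers, CHGA alone was measured in HEK293 and was higher with the NCSTN hairpin, with list sums of 141 to 160 against 109 to 135. TH, the catecholamine enzyme, and CHGB, a granin, were undetected on all HEK293 arrays and measured in HEK001, where in control cells they were at least 6.53-fold and at least 9.2-fold above HEK293. TH and CHGB were picked after their values were seen. As a description of the control cells over whole lists, 9 of 15 detected granule and prohormone processing genes passed higher in HEK293 and 4 lower, and 6 of 11 detected peptide genes higher and 4 lower, so neither list had its higher level in 1 line throughout. NPY, among the higher peptide genes, was not detected in full in either control group. Of all genes, 39% passed higher in HEK293, and of 18152 detected probes 5672 passed lower.

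The genes most like each member were found by the root mean square difference of log2 levels over the 12 arrays, after centring each gene on its own mean. TUBB2B was closest to ZCCHC12 (0.251) and ID2 (0.337), and ZCCHC12 to ID2 (0.193) and TUBB2B (0.251). LIN28B was closest to CYFIP2 (0.135) and HOXB2 (0.199), and CYFIP2 to LIN28B (0.135) and HOXB2 (0.156). These 4 members thus fell into the pairs TUBB2B with ZCCHC12 and LIN28B with CYFIP2. All 4 were at background in HEK001 and were kept through HEK293 arrays alone. Their closeness therefore follows largely from like levels in HEK293 and is no support for a link between them. INA was closest to POLE4 (0.154) and ALG1 (0.178), NEFL to CCDC174 (0.187) and POLR2A (0.188), GAL to EPG5 (0.129) and SFT2D2 (0.129), and STMN1 to TTC1 (0.0777) and SNHG12 (0.102). GALR2 was closest to VCX (0.244) and VCX3A (0.279), near-identical copies of a gene family whose probes may read each other. Mean levels of VCX and VCX3A were 6.87 and 7.43 in HEK293 with the NCSTN hairpin. In the other groups they were 4.43 to 5.26, near background like those of GALR2. That closeness thus rests largely on a single group and is no support for a link. VGF was farther from any gene, with SGK1 (0.391), a serum- and glucocorticoid-regulated kinase, and FOS (0.398) nearest. Mean levels of SGK1 were 7.36 in HEK293 controls, 9.78 in HEK293 with the NCSTN hairpin, 10.11 in HEK001 controls and 10.31 in HEK001 with the hairpin.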

How the data were processed

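Gene expression was measured on 12 Illumina BeadChip arrays, 3 per group. For each of 47318 probes the authors' scanner table gives, per the file headers, the mean signal with its bead standard error, the number of beads (median bead count 22) and a p-value of detection. The deposited signal is a linear intensity with background subtracted, since 27.07% to 29.12% of values per array lie below 0, and its scale differs from array to array. The deposited p-values move in steps of 1 over 770. A further table of the authors holds log2 values of 21270 probes, with a common array median of 6.666 and a minimum of 1, and was used as an alternative. GenomeStudio 2010 and R 3.0.2 appear in the submitters' processing notes, with no step given.

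Background was corrected here by normexp fitted on the p-values of detection. An offset of 16 was then added, and the values were quantile normalised and taken to log2. The 18152 probes detected on at least 3 arrays, at p under 0.01, were kept. In the platform annotation 16040 probes have 1 gene and 3 have several, the other 31275 being unnamed here, and 16030 were found in RefSeq by gene identifier. Of the kept probes, 14411 had 1 gene (11075 genes) and 3741 had no single gene name. Group means were fitted with limma 3.58.1 under R 4.3.3 and moderated by empirical Bayes (8 residual degrees of freedom, 12.6 in total). Adjustment was by Benjamini-Hochberg over all kept probes, with a threshold of 0.05. Every adjusted p-value comes from such a limma fit across all probes. The script was tested on simulated data.

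The members and the gene lists were chosen with earlier results of these data known. Every detected member probe is named. Of each list, up to 2 called genes with the largest and up to 2 with the lowest effect in HEK293 are named, and for each member the 2 nearest genes. ID4, NPY, TUBB2A, TH, CHGB, PAM, FURIN and the keratinocyte genes were named after their values were seen. Whether replicate numbers pair the samples is not stated, and the main fit does not pair them. Deviations of same-numbered arrays correlated between -0.037 and 0.07 and those of other-numbered arrays between -0.083 and 0.107. With 3 arrays per group these values cannot show whether same-numbered arrays shared a culture or handling. Alternatives were no background correction, another offset, scaling and filter, the authors' values, 1 probe per gene, fits of the compared groups alone, a replicate block and leaving out each array. The number of arrays limits the precision.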

Additional observations from a re-analysis of the deposited data

Results flagged for a closer look

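The hairpin effect of INA differed between the lines by 1.25 on the log2 scale (HEK293 minus HEK001, 95% interval 0.93 to 1.58, limma adjusted p = 0.000178), with an effect of 0.98 in HEK293 and of -0.27 in HEK001. It drew attention because the test of the difference itself passed, and the difference was between 1.20 and 1.34 over the 12 single omissions of an array. The members were chosen with results of these arrays known, so the p-values of the flagged results are no independent support.

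The brighter STMN1 probe was marked for the same reason, with a difference of 0.66 (limma adjusted p = 0.0133) between an effect of 0.41 in HEK293 and of -0.25 in HEK001. The difference was between 0.57 and 0.73 over the single omissions. The dimmer probe of the same gene gave a difference of -0.35, which did not pass.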

How the results depend on the processing

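Among 109 results and 2380 alternative values, 2185 were counted as the same. A tested effect did so if it kept its direction and its side of the threshold. A value given as a description did so if it moved by less than the replicate spread, and a count if it stayed within a set ratio of the main count. Of the rest, 84 lost and 5 gained a call, 99 moved further, and 7 tested but uncalled effects changed sign, all under single omissions. INA kept its calls under all alternatives run. Scaling each array to a common median over all probes, which lies near background, gave 1141 called probes in place of 3728 in HEK293, 664 in place of 2239 in HEK001, and 1021 in place of 3520 for the difference, with 1 member probe called in HEK293 and 1 for the difference. Counts of member probes here leave out VGF and GALR2 in HEK293 and VGF for the difference. It shifted the median difference between the lines by -0.143 in control cells, where it called 4570 probes higher and 5938 lower in HEK293 against 6660 and 5672, and it ended the calls of the STMN1 probes (adjusted p of 0.33 and 0.0632, and 0.169 for the difference). The same scaling over detected probes, chosen after seeing the data, gave 3167, 2104 and 3147. With 1 probe per gene, 8046 genes in place of 12332 probes differed between lines in control cells and 8161 in place of 12499 with the NCSTN hairpin, because fewer features were tested. With an offset of 50, 6 member probes passed in HEK293, among them NEFL (0.36), LIN28B (-0.29) and the brighter CYFIP2 probe (-0.26). At that offset the effects of VGF and GALR2 in HEK293 were 1.58 and 1.45. Leaving out 1 array gave 2799 to 3877 called probes in HEK293, 1388 to 2346 in HEK001 (1388 without HEK001 control replicate 3 and 1473 without replicate 2), 2769 to 3161 for the difference, and 11543 to 12414 and 11833 to 12620 between the lines, with 2 to 4, 0 and 2 to 3 member probes called in the hairpin contrasts. Signs turned for the dimmer CYFIP2 probe in HEK293 (0.05 and 0.02, within -0.10 to 0.05), for NEFL in HEK001 (-0.06, -0.02, -0.05 and -0.07, within -0.07 to 0.23) and for VGF in HEK001 (0.02, the highest of a range from -0.16). The untested difference between lines of the dimmer STMN1 probe with the NCSTN hairpin ran from -0.21 to 0.03 and was counted as the same. A block by replicate number was also fitted, although whether the numbers pair the samples is not stated. It called 3211 probes in HEK293, 1578 in HEK001 and 2810 for the difference, and the brighter STMN1 probe did not pass (limma adjusted p = 0.0675). The block gave 2 calls in the let-7 list, 3 among the stathmins and microtubule-associated proteins and 4 among the granule genes. Where no cause is stated, the cause was not tested. Signal over background limits GALR2 in controls and NEFL in HEK001 with the NCSTN hairpin, where not every array detected the probe and a fold against that group is only a bound.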

Other observations

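In HEK001, where no member passed, 3 of 9 measured granule and prohormone processing genes rose with the NCSTN hairpin. CHGA rose by 0.72 (SE 0.15, limma adjusted p = 0.00844) and PAM, the enzyme that amidates peptide hormones, by 0.46 (SE 0.0827, limma adjusted p = 0.00361), while FURIN, a proprotein convertase, was at least 1.37-fold higher. CHGB, of the same family as CHGA, had an effect of 0.01 (limma adjusted p = 0.961). These genes were named after their values were seen, and 8.37% of the 9300 genes measured in HEK001 rose. Of the keratinocyte markers, KRT15, a basal keratin, rose by 1.37 (limma adjusted p = 2.91e-05) and DSG3, a desmosomal cadherin, by 0.84, whereas KRT14 had 0.28 and did not pass (limma adjusted p = 0.154). TUBB2A, whose relative TUBB2B was undetected there, rose by 0.33 in HEK001 (limma adjusted p = 0.044) and by 0.42 in HEK293 (limma adjusted p = 0.00867).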
